A study of Mus musculus with 8 samples.

Results

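The cytosolic ribosomal protein genes encode the proteins that, with ribosomal RNA, build the large and small subunits of the ribosome outside mitochondria. Members were all protein-coding genes whose mouse symbols follow the Rpl and Rps naming scheme, with Rplp0, Rplp1, Rplp2 and Rpsa and without S6 kinases and pseudogenes. This gave 83 of the 41388 gene identifiers in the deposited tables, 51 of the large subunit and 32 of the small subunit, on 19 chromosomes. Of these, 77 are core genes and 6 are variants, paralogs of a core gene (Rpl3l, Rpl7l1, Rpl10l, Rpl22l1, Rpl39l and Rps27l). A further 5 symbols of the same form were left out because the annotation lists them as pseudogenes, Rps4l among them.

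RNA came from whole ear skin of wild-type adult C57Bl/6 mice, in 8 libraries. The vehicle group was 4 mice given ethanol, and the MC903 group was 4 mice given 1 nmol of MC903 on the skin each day over 12 days. MC903 is calcipotriol, a vitamin D analog that causes itch and dermatitis-like inflammation in mouse skin. Whole ear is a mixture of cell types, so fewer cells of a type and less RNA per cell cannot be told apart. Library totals ran from 12310466 to 16837221 counts. Levels are CPM, counts scaled by library total and by TMM factors (edgeR's correction for library composition), unless RPKM, the authors' value per kilobase of gene, is named.

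Ribosomal protein mRNAs are among the most abundant transcripts of most cells. In mammals most of them begin with a run of pyrimidines, the terminal oligopyrimidine (TOP) tract, through which mTOR signaling and the RNA-binding protein Larp1 control their translation. MYC and growth signals raise their transcription, and proliferating cells make many ribosomes.

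The promoters of these genes share short motifs that the naming rule did not use. RefSeq promoters of the build GRCm38.p6, from 250 bases before to 50 bases after each annotated start, were matched for 63 of the 83 genes (75 promoters of 32851 in the table). Each motif was searched on both strands, and matches of different motifs can overlap. CCGGAAG, a core of ETS-family sites, stood in 36% of the promoters of ribosomal protein genes, against 8.86% of all promoters in the table, and the other motifs are given in the same order. AAGATGGC, a YY1-type motif, stood in 10.7% against 2.75%, and GGGCGG, an Sp1-type motif, in 60% against 35.7%. CACGTG, the E-box that MYC can bind, stood in 10.7% against 7.15%, and TATAAA in 9.33% against 13.6%. Both orders turned in a shorter window, from 100 bases before to 50 after the start, where CACGTG stood in 2.67% against 4.35% and TATAAA in 8.0% against 6.94%. CTTTTC or CTTTCC, stretches like the start of a TOP tract, were searched on the gene strand within 20 bases of the start and stood in 20% against 3.32%. A match is a stretch of letters, not a measured binding site.

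Promoters of 3 genes that rose with MC903 and carry the TOP-like stretch, and of the variant Rpl22l1, are shown to place these motifs beside genes described below. They were chosen after their values were seen. Each runs 5′ to 3′ on the gene strand from 150 bases before to 30 bases after the start, with motif matches in capitals. In Rps10 (chr17:27635215-27635394, minus strand) and Rpl38 (chr11:114668430-114668609, plus strand) the capitals mark the Sp1-type motif, then the ETS-type motif, then the TOP-like stretch. In Rpl13a (chr7:45128716-45128895, minus strand) they mark the Sp1-type motif read on the opposite strand and the TOP-like stretch. In Rpl22l1 (chr3:28805358-28805537, plus strand) they mark the Sp1-type motif read on the opposite strand and overlapping TATAAA matches on both strands.
Rps10: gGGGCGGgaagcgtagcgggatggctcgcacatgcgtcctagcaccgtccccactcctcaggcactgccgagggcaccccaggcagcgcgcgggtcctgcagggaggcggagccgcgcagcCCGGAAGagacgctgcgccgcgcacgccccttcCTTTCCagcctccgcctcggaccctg
Rpl38: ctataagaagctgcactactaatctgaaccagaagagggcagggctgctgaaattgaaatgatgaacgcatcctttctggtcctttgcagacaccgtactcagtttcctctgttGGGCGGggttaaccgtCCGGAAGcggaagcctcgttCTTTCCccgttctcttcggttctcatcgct
Rpl13a: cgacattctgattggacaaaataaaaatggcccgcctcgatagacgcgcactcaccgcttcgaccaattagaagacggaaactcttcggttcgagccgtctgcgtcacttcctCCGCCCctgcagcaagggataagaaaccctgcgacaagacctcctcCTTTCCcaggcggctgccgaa
Rpl22l1: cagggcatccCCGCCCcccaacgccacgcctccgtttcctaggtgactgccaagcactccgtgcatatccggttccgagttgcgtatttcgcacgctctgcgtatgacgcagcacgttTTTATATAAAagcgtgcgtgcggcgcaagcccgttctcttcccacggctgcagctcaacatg

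The level at which these genes were counted differed widely. Among the 81 with enough counts to test, mean RPKM over the 8 libraries ran from 1.15 for Rps6, a substrate of S6 kinase, to 1741 for Rpl32. RPKM also depends on the authors' gene length, 255 to 6262 bases over the 83 genes. Their principal transcripts ran from 345 to 3706 bases. Ribosomal protein genes have many processed pseudogenes, and how reads that match several places were counted was not given in the sources used here. As a measure of shared sequence, each principal transcript was divided into all windows of 50 bases, the read length, and each window was looked up in the transcripts of every other annotated gene on either strand. The median share of windows found in no other gene was 50.9% over the 83 genes, and 18 genes had under 25% of such unique windows. Rps27, a zinc-finger protein of the small subunit, had 1.35% unique windows and shared windows with 9 other genes. Rps6 had 15.4% and Rpl10 7.87%, whereas Rpl3l and Rpl39l had 100.0%. Across the 81 genes with enough counts to test, the share of unique windows and mean RPKM had a Spearman rho of 0.46, a description only, since all genes come from the same libraries. The same share and the log2 fold change had a rho of -0.03. Each fold change below compares the counts of a gene between the groups, and whether shared reads entered those counts was not tested.

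**Figure D1:**
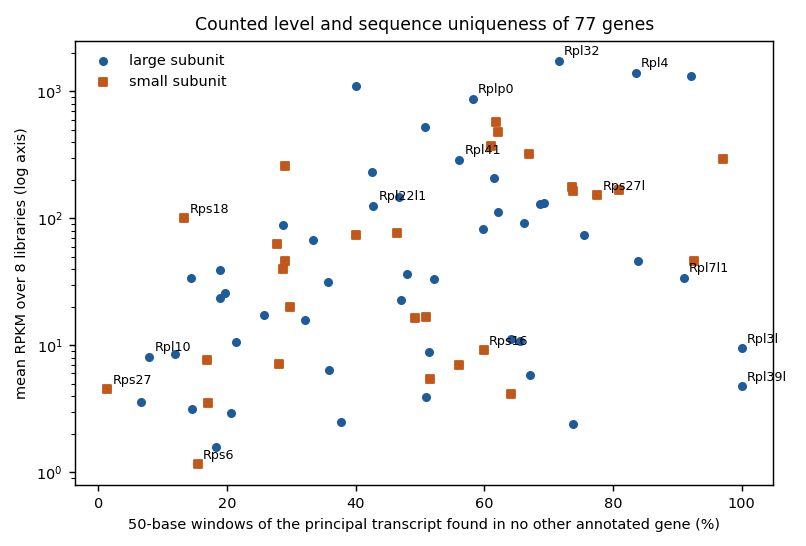
Mean RPKM over the 8 libraries (log axis) of each of 77 tested genes against the percent of 50-base windows of its principal transcript that no other annotated gene holds. Rps27 and Rps6, with 1.35% and 15.4% unique windows, lie low, Rpl32 and Rpl4, with 71.6% and 83.5%, lie high, and the fully unique Rpl3l and Rpl39l are low.

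The ribosomal protein genes were higher as a group in MC903-treated ear skin. Of the 81 that passed the filter on low counts, 59 rose and 0 fell (edgeR's quasi-likelihood test, Benjamini-Hochberg adjusted p under 0.05 over all genes tested). At an unadjusted p under 0.05, 0 were lower by edgeR, and DESeq2 and limma-voom called 0 and 0 lower. Over all 16105 genes tested 41.5% passed, 21.3% as higher and 20.2% as lower, against 72.8% higher among the ribosomal protein genes. Their median log2 fold change was 0.67, a fold of 1.6, with quartiles of 0.50 and 0.88, while the median over all genes tested was -0.03. The estimate was above 0 for 79 of the 81, the exceptions being Rpl3l and Rpl24. In 35 genes every MC903 library lay above every vehicle library, as in 19.8% of all genes tested, and in 0 did every MC903 library lie below. The number that rose was 39 without vehicle replicate 3, where 18.1% of all genes rose, and 32 with library sizes alone in place of TMM factors, where 14.7% did. Among the 42 tested genes with at least 50% unique windows 31 rose. Of the 7 with at least 90%, 3 rose, with a median log2 fold change of 0.50.

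**Figure D2:**
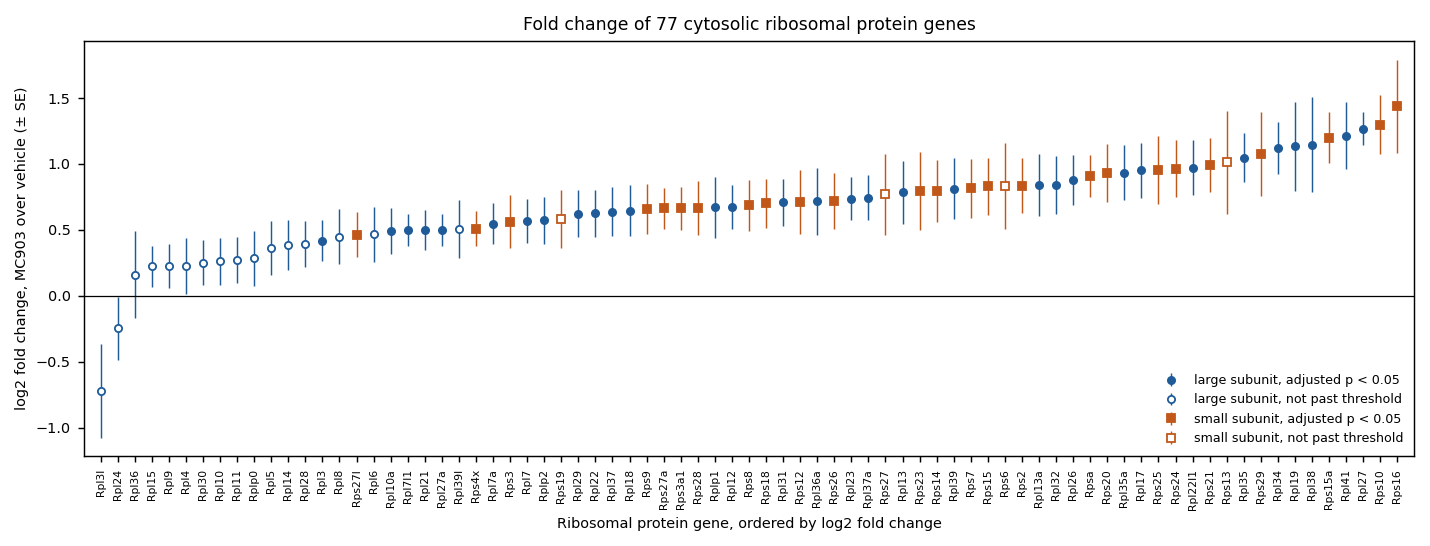
Log2 fold change of MC903 over vehicle, with its standard error, for each of 77 tested ribosomal protein genes in order of size. Filled symbols passed the adjusted p threshold of 0.05, circles are large subunit and squares small subunit genes, and all 57 filled symbols lie above 0.

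MC903 replicate 4 stood apart from the other MC903 libraries. Ribosomal protein genes together took 1.67, 1.14, 1.49 and 1.71% of counted reads in vehicle replicates 1 to 4, and 2.4, 2.31, 2.28 and 1.47% in MC903 replicates 1 to 4. By this share MC903 replicate 4 lay inside the vehicle range and the other MC903 libraries above it. The geometric mean CPM of the tested genes was 40.5 to 47.7 in vehicle libraries and 68.4 to 83.7 in MC903 replicates 1 to 3. By that measure MC903 replicate 4, at 52.0, lay between the groups. It was the lowest MC903 library for 65 of the 81 genes and within the vehicle range for 34, whereas MC903 replicates 1, 2 and 3 were within it for 11, 3 and 5. Over all genes tested, MC903 replicate 4 was within the vehicle range for 32.7% and MC903 replicates 1, 2 and 3 for 26.05%, 25.7% and 30.8%. Without MC903 replicate 4 the number that rose was 68 and the median log2 fold change 0.80 (21.3% of all genes rose in that fit). Without both it and vehicle replicate 2, which had the lowest TMM factor, 62 rose, against 19.3% of all genes.

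**Figure D3:**
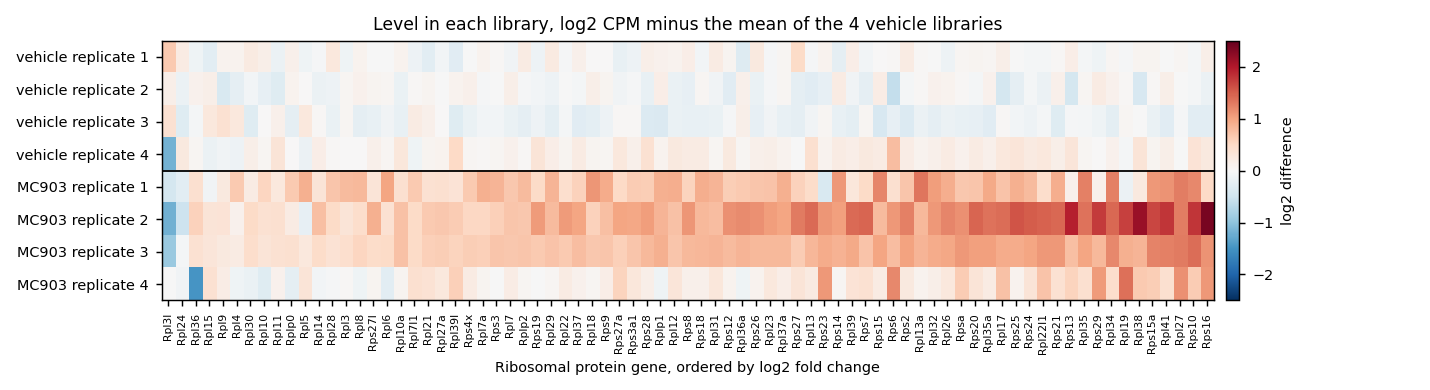
Level of 77 tested ribosomal protein genes in each library, as log2 (CPM + 0.1) minus the mean of the 4 vehicle libraries, with genes in order of log2 fold change. MC903 replicates 1, 2 and 3 are red (higher) for most genes, MC903 replicate 4 is pale for many, and Rpl3l at the left end is blue (lower) in MC903 replicates 1, 2 and 3.

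Most leukocyte markers and all proliferation markers rose, whereas the called shares of keratinocyte and fibroblast markers were near or below those of all genes tested, 21.3% higher and 20.2% lower. The summed level of 24 leukocyte markers was 901, 1010.4, 862 and 937 CPM in the vehicle libraries and 3497, 3239, 2796 and 1949 CPM in the MC903 libraries, with MC903 replicate 4 between the groups. Of the 21 tested, 17 rose and 0 fell, and 0 of the 24 were at 0 in every library. Mcpt8, a basophil protease, averaged 0.722 ± 0.254 CPM with vehicle and 89.1 ± 8.33 CPM with MC903 (mean ± SD of 4 libraries). All 18 proliferation markers rose, and their sum was 362 to 465 CPM with vehicle and 900.1 to 1044 CPM with MC903, with 1017 CPM in MC903 replicate 4. The 16 keratinocyte markers summed to 20348 to 21783 CPM with vehicle and 25409 to 26419 CPM with MC903, and 4 rose and 3 fell (median -0.11). The 12 fibroblast markers summed to 11412 to 15720.3 CPM and 7865 to 11551 CPM, and 1 rose and 2 fell (median -0.11). Mitochondrial and ribosomal RNA genes took 2.12 to 4.36% of counts in vehicle and 1.72 to 3.35% in MC903 libraries. The part of these measures in the rise of the ribosomal protein genes was not tested.

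**Figure D4:**
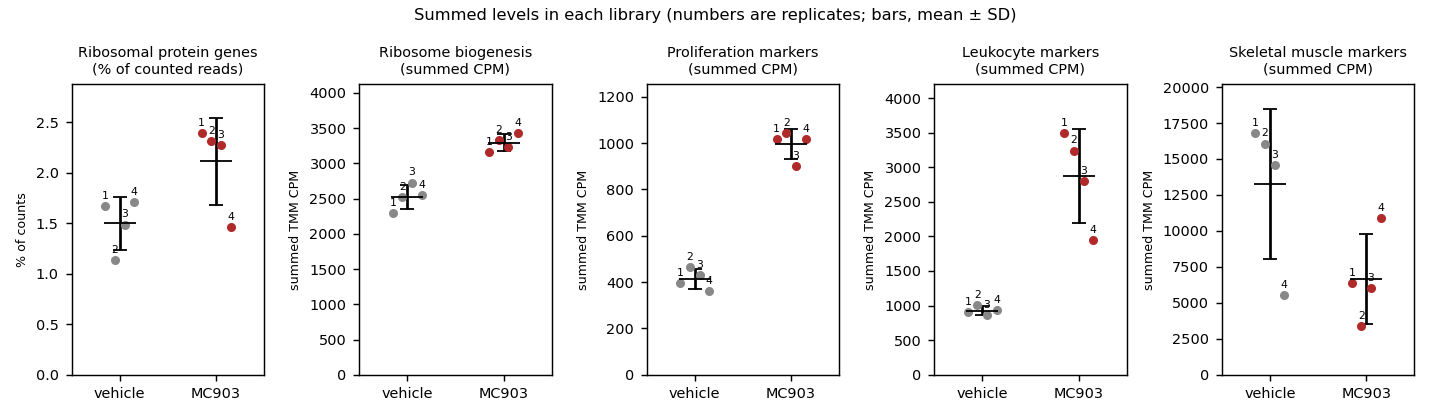
Summed level in each library of the ribosomal protein genes (percent of counted reads) and of ribosome biogenesis, proliferation, leukocyte and skeletal muscle gene lists (summed CPM), with replicate numbers beside the points and mean ± SD as bars. MC903 replicate 4 lies with the vehicle libraries for the share of counts in ribosomal protein genes and between the groups for leukocyte markers. It lies with the MC903 libraries for biogenesis and proliferation genes.

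The ribosomal protein genes were also split by the length of their principal transcripts. The 43 genes with principal transcripts under 800 bases had a median log2 fold change of 0.74 and 34 rose. The 38 with longer transcripts had a median of 0.57 and 25 rose, and the difference was not tested. On the log2 scale the shorter transcripts stood at a median of 0.43 from the MC903 group mean in MC903 replicate 2 and -0.50 in MC903 replicate 4. The longer ones stood at 0.12 and -0.37. The 1249 other genes under 1 kb, by the authors' gene length, stood at 0.13 and -0.20. With a trend over the authors' gene length removed from each library, 48 of the 81 genes rose and 0 fell. The median was then 0.57, and 22.2% of all genes rose. That length can differ from the principal transcript's, as for Rps15a (6262 and 640 bases), so this was not a trend over transcript length.

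**Figure D5:**
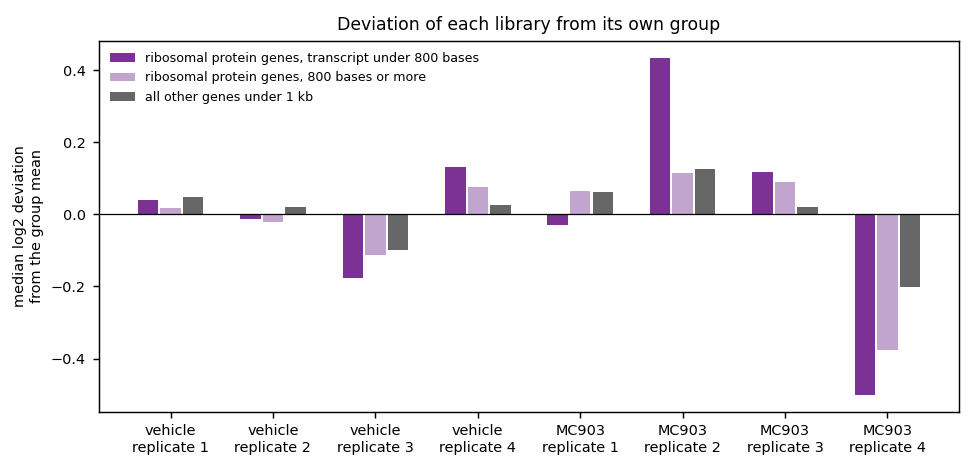
Median log2 deviation of each library from its own group mean, for ribosomal protein genes with transcripts under 800 bases, those with longer transcripts, and 1249 other genes. The other genes are those under 1 kb by the authors' gene length. MC903 replicate 2 is high and MC903 replicate 4 low, most of all for the shorter ribosomal protein transcripts.

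Among core small subunit genes 26 of 31 rose, with a median log2 fold change of 0.80. Rps16 (chr7:28350652-28352696, plus strand, mm10), which lies in the small subunit head, stood at 4.36, 3.53, 3.26 and 4.68 CPM in vehicle replicates 1 to 4 and at 5.6, 20.6, 8.68 and 8.36 CPM in MC903 replicates 1 to 4. All MC903 values were above all vehicle values, with MC903 replicate 2 far above the rest. Its log2 fold change was 1.44 ± 0.35 (SE; edgeR adjusted p = 0.00740), from few counts, and 58 other genes shared a window with it.

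Rps10 (chr17:27630422-27636629, minus strand), one of the genes mutated in Diamond-Blackfan anemia, was at 21.7, 21.7, 18.7 and 28.5 CPM with vehicle and 51.4, 77.5, 59.3 and 34.6 CPM with MC903. The groups did not overlap, and MC903 replicate 4 was the lowest treated library (1.30 ± 0.22, adjusted p = 0.000886). Rps15a (chr7:118104378-118116186, minus strand), another small subunit protein, was at 67.3, 65.5, 57.3 and 67.3 CPM with vehicle and 137, 205, 152 and 97.8 CPM with MC903 (1.20 ± 0.19, adjusted p = 0.000591). It showed the same order, with MC903 replicate 4 lowest of its group and above every vehicle library. Rpsa, a small subunit protein also known as the laminin receptor, rose from 9.02 ± 0.799 to 16.9 ± 3.18 CPM (0.91 ± 0.16, adjusted p = 0.000974). Other core small subunit genes that rose had log2 fold changes from 0.51 ± 0.13 for Rps4x to 1.08 ± 0.32 for Rps29. Rps29 had only 28 to 78 counts in a library. Its MC903 replicate 1 (2.02 CPM) lay inside the vehicle range (1.71 to 2.15 CPM). Rps29 missed the threshold when vehicle replicate 3 was left out (adjusted p = 0.0504), and likewise for MC903 replicate 2 (0.0562). The call of Rps4x was lost with library sizes alone (0.0944).

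Core small subunit genes that did not pass included Rps6, Rps13, Rps19 and Rps27. Rps19, the gene most often mutated in Diamond-Blackfan anemia, was just outside the threshold at 259, 271, 259 and 354 CPM with vehicle and 396, 589.8, 446 and 279.9 CPM with MC903 (0.58 ± 0.22, adjusted p = 0.0529). MC903 replicate 4 lay within the vehicle range, and the gene passed without that library (adjusted p = 0.0107) or without vehicle replicate 4 (0.0373). Rps13 was at 1.47, 0.922, 1.26 and 1.62 CPM with vehicle and 1.42, 5.25, 2.25 and 1.95 CPM with MC903 (1.01 ± 0.39, adjusted p = 0.0577), and it passed without MC903 replicate 1 (adjusted p = 0.0233) or 4 (0.0477). Rps6 was at 1.24, 0.768, 1.03 and 2.12 CPM with vehicle and 1.62, 2.67, 2.12 and 2.92 CPM with MC903 (0.83 ± 0.32, adjusted p = 0.0596), and it passed without vehicle replicate 4 (0.0128) or MC903 replicate 1 (0.0385). Both genes had few counts and groups that overlapped.

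Just inside the threshold was Rps23, a protein of the decoding center, at 3.12, 2.54, 3.03 and 3.12 CPM with vehicle and 2.23, 6.42, 5.7 and 6.33 CPM with MC903 (0.80 ± 0.30, adjusted p = 0.0494). MC903 replicate 1 was the lowest of all 8 libraries, and the call was lost on leaving out any 1 of the others (adjusted p up to 0.123).

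Among core large subunit genes 30 of 45 rose, with a median log2 fold change of 0.62, and the difference between subunits was not tested. Rpl27 (chr11:101442298-101445529, plus strand) was at 6.07, 5.76, 5.71 and 5.81 CPM with vehicle and 14.4, 14.3, 14.5 and 13.1 CPM with MC903. Both groups were tight, and MC903 replicate 4 stood well above the vehicle range (1.27 ± 0.13, adjusted p = 2.10e-05). Rpl41 (chr10:128548114-128549305, minus strand), which encodes the smallest ribosomal protein, was at 204, 227, 168 and 225 CPM with vehicle and 444, 709, 489 and 270.4 CPM with MC903, again without overlap (1.22 ± 0.25, adjusted p = 0.00297).

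Rpl38 (chr11:114668524-114672331, plus strand), known for its part in the translation of Hox mRNAs, was at 12.8, 9.14, 12.1 and 15.2 CPM with vehicle and 14.3, 54.3, 21.8 and 19.1 CPM with MC903. MC903 replicate 2 was far above the rest and MC903 replicate 1 lay inside the vehicle range (1.15 ± 0.36, adjusted p = 0.0248). It no longer passed without vehicle replicate 1 (adjusted p = 0.0517), 2 (0.0631) or 3 (0.0588), and with the length trend removed (0.0503). Rpl13a, also known as a regulator of inflammatory mRNA translation, was at 515, 514, 453 and 534 CPM with vehicle and 1276, 884, 905 and 536 CPM with MC903. MC903 replicate 4 only just cleared the highest vehicle library (0.84 ± 0.23, adjusted p = 0.0146). Other core large subunit genes that rose had log2 fold changes from 0.49 ± 0.18 for Rpl10a to 1.13 ± 0.34 for Rpl19. Rpl19 had only 25 to 76 counts in a library. Its MC903 replicate 1 (1.69 CPM) lay below every vehicle library (1.81 to 1.94 CPM). Rpl10a missed the threshold in 5 of 8 omissions of 1 library, those of vehicle replicates 1, 2 and 3 and MC903 replicates 2 and 3 (adjusted p up to 0.122) and in 5 of 13 other alternatives. The call of Rpl19 was lost without MC903 replicate 2 (0.0648) and with limma-voom (0.0640).

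Of the 4 genes with the highest mean RPKM, Rpl32 and Rplp1 rose and Rpl4 and Rpl8 did not pass. Rpl32 was at 639, 699.8, 557 and 702 CPM with vehicle and 1328, 1365, 1237 and 717 CPM with MC903 (0.84 ± 0.22, adjusted p = 0.00981), without overlap. Rpl4, which lines part of the peptide exit tunnel, was at 1914, 1543, 2185 and 1655 CPM with vehicle and 2842, 1946, 2085 and 1672 CPM with MC903 (0.23 ± 0.21, adjusted p = 0.409). Rpl8, near the peptidyl transferase center, was at 1026, 1039, 830.2 and 977 CPM with vehicle and 1688, 1309, 1392 and 890.2 CPM with MC903 (0.45 ± 0.21, adjusted p = 0.106). The groups overlapped in both, and Rpl8 passed without MC903 replicate 4 (adjusted p = 0.0225).

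Rplp0, Rplp1 and Rplp2 form the stalk that recruits translation factors to the large subunit. Rplp1 was at 456, 474, 329.6 and 448 CPM with vehicle and 782, 767, 778 and 391 CPM with MC903 (0.67 ± 0.23, adjusted p = 0.0389). MC903 replicate 4 lay inside the vehicle range, and the call was lost on leaving out any 1 other library (adjusted p up to 0.106) and with the length trend removed (0.156). Rplp2 rose from 222 ± 27.7 to 330.4 ± 68.3 CPM (0.57 ± 0.18, adjusted p = 0.0257), a call lost without vehicle replicate 2 (0.0575) or 3 (0.0732), and also without MC903 replicate 2 (0.0605) or 3 (0.0681). Rplp0, the base of the stalk, was at 1316 ± 135 CPM with vehicle and 1602 ± 386 CPM with MC903, a difference that did not pass (0.28 ± 0.21, adjusted p = 0.29).

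Rpl5 and Rpl11, which bind Mdm2 and stabilize p53 when ribosome assembly fails, did not pass. Their log2 fold changes were 0.36 ± 0.20 (adjusted p = 0.172) and 0.27 ± 0.18 (adjusted p = 0.236), and Rpl5 passed without MC903 replicate 2 (0.0486). Rpl3, of the peptidyl transferase center, was just inside the threshold at 84.5, 95.2, 94.8 and 91.6 CPM with vehicle and 159, 114, 123 and 93.9 CPM with MC903 (0.42 ± 0.15, adjusted p = 0.0485). MC903 replicate 4 lay inside the vehicle range, and the call was lost on leaving out any 1 other library (adjusted p up to 0.117). The lowest core estimates were those of Rpl24, a protein of a bridge between the subunits (-0.25 ± 0.24, adjusted p = 0.433), and of Rpl36 (0.16 ± 0.33, adjusted p = 0.72). Rpl36 stood at 8.31, 9.68, 8.68 and 9.37 CPM with vehicle and 11.9, 13.4, 11.7 and 3.16 CPM with MC903, so that MC903 replicate 4 was below and the other MC903 libraries above every vehicle library. Without it Rpl36 passed (0.46, adjusted p = 0.0251). Other core large subunit genes that did not pass, among them Rpl10, Rpl14, Rpl15, Rpl28, Rpl30, Rpl6 and Rpl9, had log2 fold changes from 0.22 ± 0.15 for Rpl15 to 0.46 ± 0.21 for Rpl6. Rpl23a had too few counts to test, 8, 4, 7 and 8 in vehicle and 17, 31, 9 and 16 in MC903 libraries.

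Of the 5 variant genes tested, 3 rose and 0 fell. Rpl22l1, a paralog of Rpl22, was at 39.6, 36.96, 39.6 and 49.3 CPM with vehicle and 55.8, 115, 87.4 and 67.3 CPM with MC903, without overlap (0.97 ± 0.20, adjusted p = 0.00309). Rpl22 rose from 169 ± 6.27 to 261 ± 69.4 CPM (0.63 ± 0.18, adjusted p = 0.0159), a call lost with library sizes alone (adjusted p = 0.0789). The log2 ratio of Rpl22l1 to Rpl22 counts within a library was -2.04 ± 0.14 in vehicle and -1.70 ± 0.22 in MC903 skin (mean ± SD, n = 4 per group), and 3 of 4 MC903 libraries were above every vehicle library. The difference of 0.34 had p = 0.0571 in a two-sided exact permutation test over the libraries, whose smallest possible p is 0.0286, and an adjusted p of 0.171 over the 6 pairs tested. Rpl7l1, a paralog of Rpl7, was at 67.4, 75.4, 84.6 and 68.1 CPM with vehicle and 115, 103, 103 and 96.7 CPM with MC903, without overlap and with MC903 replicate 4 close to its group (0.50 ± 0.12, adjusted p = 0.00646). The call of Rpl7l1 was lost with library sizes alone (adjusted p = 0.108), and its ratio to Rpl7 differed by -0.06 (exact permutation p = 0.714).

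Rps27l, a paralog of Rps27 and a known p53 target, was just inside the threshold at 103, 109, 90.9 and 114 CPM with vehicle and 129, 193, 143 and 109 CPM with MC903 (0.46 ± 0.17, adjusted p = 0.0483). MC903 replicate 4 lay inside the vehicle range. The call was lost without any 1 vehicle library (adjusted p up to 0.124), without MC903 replicate 2 (0.141) or 3 (0.0917), and with the length trend removed (0.209). Its ratio to Rps27 differed by -0.32 (exact permutation p = 0.143), and Rps27 had only 9 to 26 counts in a library. Of 15 p53 targets tested, 5 rose and 1 fell (median log2 fold change 0.16), or 33.3% higher, against 21.3% of all genes. Those with the smallest p were Sesn2 at 1.43 ± 0.19 (edgeR adjusted p = 0.000124) and Plk2 at 1.11 ± 0.14 (adjusted p = 8.61e-05). The targets Cdkn1a (0.27 ± 0.16, adjusted p = 0.192) and Mdm2 (0.10 ± 0.12, adjusted p = 0.535) did not pass.

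Rpl39l, a paralog of Rpl39 best known from male germ cells, was at 2.59, 3.38, 2.57 and 4.56 CPM with vehicle and 4.05, 5.0, 4.7 and 4.87 CPM with MC903 without passing (0.51 ± 0.22, adjusted p = 0.0838). Without vehicle replicate 4, the highest of its group, it passed (adjusted p = 0.0224). Its ratio to Rpl39 differed by -0.21 (exact permutation p = 0.514). Of 10 germ cell markers only Sycp3 had enough counts to test, and it did not pass (-1.15 ± 0.65, adjusted p = 0.176). Rpl10l, a germ cell paralog of Rpl10, had 0 counts in all 8 libraries, where 3 counts would be 0.171 to 0.25 CPM (counting error only).

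Rpl3l, the paralog of Rpl3 made in heart and skeletal muscle, was the only tested variant with an estimate below 0. It was at 27.2, 19.1, 22.7 and 7.56 CPM with vehicle and 12.7, 7.42, 9.08 and 17.3 CPM with MC903 (-0.72 ± 0.35, adjusted p = 0.124). Vehicle replicate 4 was the lowest of its group and MC903 replicate 4 the highest of its own, so the groups overlapped. The summed level of 18 skeletal muscle markers was 16819, 16067, 14559.5 and 5538 CPM with vehicle and 6392, 3388, 6017 and 10900.1 CPM with MC903, with the same libraries low and high. Of these 18 markers 0 rose and 6 fell, where 20.2% of all genes tested fell, and 0 were at 0 in every library. The number of markers that fell was 16 without vehicle replicate 4, 14 without MC903 replicate 4 and 0 or 1 without any other 1 library. The shares of all genes that fell in those fits are not given here. The part of muscle in the Rpl3l levels was not tested. Rpl3l passed as lower without vehicle replicate 4 (-0.99, adjusted p = 0.0115) and with library sizes alone (-0.80, adjusted p = 0.0498). Its ratio to Rpl3 differed by -1.04 (exact permutation p = 0.0571, adjusted p = 0.171 over the pairs). The ratio of the transcribed pseudogene Rps4l to Rps4x differed by -0.35 (exact permutation p = 0.20).

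Ribosomal proteins whose names fall outside the scheme also rose, in 5 of 5 tested genes (median log2 fold change 1.13). Fau, a fusion of a ubiquitin-like protein with a small subunit protein, was at 6.66, 6.61, 4.63 and 7.25 CPM with vehicle and 10.8, 26.7, 13.5 and 11.9 CPM with MC903, without overlap (1.32 ± 0.28, adjusted p = 0.00334). Rpl36al, a paralog of Rpl36a, rose by 0.86 ± 0.16 (adjusted p = 0.00124). Rack1, a scaffold protein on the small subunit, rose from 797 ± 76.3 to 1449.8 ± 381 CPM (0.86 ± 0.21, adjusted p = 0.00726). Of 247 ribosomal protein pseudogenes with -ps names, 49 could be tested, and 10 rose and 0 fell (20.4%, against 21.3% of all genes). Their median log2 fold change was 0.64, against -0.03 over all genes and 0.67 over the ribosomal protein genes. Among them Rplp0-ps1 rose by 3.13 ± 0.26 (adjusted p = 7.13e-06) and Rpl10-ps6 by 1.54 ± 0.23 (adjusted p = 0.000333), from means of 1.43 and 1.37 CPM with vehicle. The genes they are named after, Rplp0 (0.28 ± 0.21, adjusted p = 0.29) and Rpl10 (0.26 ± 0.18, adjusted p = 0.254), did not pass. The counting of reads that match several places was not given, and which copy these reads came from was not tested.

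Among other TOP mRNAs 12 rose and 0 fell of 23 tested (median log2 fold change 0.45), or 52.2% higher, against 21.3% of all genes. Eef1b2, part of the exchange factor of elongation, rose from 323 ± 41.1 to 670.3 ± 139.9 CPM (1.05 ± 0.19, adjusted p = 0.00128), and the snoRNA host Snhg1 from 32.98 ± 3.41 to 64.7 ± 12.2 CPM (0.97 ± 0.15, adjusted p = 0.000428). The elongation factors Eef1a1 (0.32 ± 0.20, adjusted p = 0.228) and Eef2 (-0.10 ± 0.16, adjusted p = 0.653) did not pass. Among translation initiation factors 16 rose and 0 fell of 31 (51.6% higher, median 0.39). With library sizes alone 9 were higher, where 14.7% of all genes rose. Eif6, which keeps the subunits apart, rose from 85.9 ± 6.47 to 183 ± 8.97 CPM (1.09 ± 0.11, adjusted p = 2.84e-05), and Eif4e, the cap-binding protein, from 64.2 ± 8.19 to 107 ± 4.88 CPM (0.74 ± 0.12, adjusted p = 0.000607).

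Among ribosome biogenesis genes 17 rose and 1 fell of 44 (median 0.32), or 38.6% higher, against 21.3% of all genes tested. The number that rose was 7 with library sizes alone, a share near the 14.7% of all genes that rose in that fit. It was 11 without vehicle replicate 1 and 10 without vehicle replicate 2, fits whose shares of all genes are not given here. Nhp2, a protein of the pseudouridylation snoRNPs, rose from 137 ± 11.7 to 275 ± 48.00 CPM (1.00 ± 0.15, adjusted p = 0.000391), and Polr1d, a subunit of RNA polymerases I and III, from 68.6 ± 7.31 to 128 ± 17.97 CPM (0.90 ± 0.14, adjusted p = 0.000389). Summed over the list, levels were 2298, 2522, 2726 and 2546 CPM with vehicle and 3158, 3332, 3234 and 3432 CPM with MC903. MC903 replicate 4, low for ribosomal protein genes, was the highest library here.

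Mitochondrial ribosomal protein genes, which serve the separate ribosomes of mitochondria, had 38 of 75 higher and 0 lower (median 0.36). This was 50.7% higher, against 21.3% of all genes tested. The number higher was 11 with library sizes alone, a share near the 14.7% of all genes that rose in that fit. It was 23 without vehicle replicate 3, where 18.1% of all genes rose, and 25 without vehicle replicate 4, a fit whose share is not given here. Mrpl12 rose from 36.5 ± 2.17 to 62.6 ± 2.25 CPM (0.78 ± 0.10, adjusted p = 0.000157) and Mrpl20 from 93.5 ± 9.57 to 172 ± 23.8 CPM (0.88 ± 0.14, adjusted p = 0.000529).

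Among MYC and mTOR regulators of ribosome genes 6 of 28 were higher and 6 lower (median -0.05), 21.4% in each direction, near the 21.3% and 20.2% of all genes tested. Myc was at 51.7 ± 9.27 CPM with vehicle and 56.5 ± 3.8 CPM with MC903, a difference that did not pass (0.13 ± 0.14, adjusted p = 0.479). Mxd1, which competes with MYC for its partner Max, rose from 68.2 ± 3.84 to 255 ± 34.8 CPM (1.91 ± 0.13, adjusted p = 2.26e-06), and Mycl, a MYC relative, fell from 27.6 ± 4.54 to 7.3 ± 1.83 CPM (-1.92 ± 0.20, adjusted p = 2.71e-05). Mtor fell from 36.2 ± 2.31 to 28.02 ± 1.5 CPM (-0.37 ± 0.11, adjusted p = 0.0188), a call lost without MC903 replicate 3 (adjusted p = 0.0513) and with the length trend removed (-0.12, adjusted p = 0.464). Larp1 did not pass (0.30 ± 0.12, adjusted p = 0.0741), but did without vehicle replicate 1 (0.0280) and with the length trend removed (0.0168). These are mRNA levels, and translation and kinase activity were not measured.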

How the data were processed

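Ear RNA was depleted of ribosomal RNA and sequenced as single reads of 50 bases, per the labels' protocols, which name no step that marks strand. The authors deposited a table per library with whole-number counts per Ensembl gene, and with CPM and RPKM values, per the file headers. The deposited CPM and RPKM were checked to equal counts scaled by library total and by gene length. The submitters' processing notes name the build mm10 and the tools featureCounts 1.4.5, Subread and STAR 2.0.4b. For the annotation release, the strand setting and reads that map to several places, settings are not given in the sources used here.

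Symbols came from a reference table for 40254 identifiers, and 158 more were named by position, none of them a member. Genes passing filterByExpr were tested with edgeR 4.0.16 (R 4.3.3; TMM factors, quasi-likelihood F-test with group alone in the model) over all genes with Benjamini-Hochberg adjustment. The standard error is the size of the log2 fold change divided by the square root of F. The fit was also run on simulated counts, drawn independently for each gene. They held no deviation shared by the genes of a library, so they could not check calls of genes that deviate together. Paralog ratios used log2 of counts plus 0.5 (scipy 1.17.1). Unique windows used GENCODE M21 transcripts with no mismatch. Alternatives were RLE, upper quartile and no scaling factors, factors without the members, other filters, DESeq2 1.42.0, limma-voom (3.58.1), a robust fit, a replicate block, a length trend, omission of mitochondrial and ribosomal RNA genes, and omission of each library. The restrictions to genes with at least 50% or 90% unique windows and the omission of 2 libraries together were chosen after seeing the data.

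Full values are given for the 4 members with the highest RPKM, the 6 largest rises among called members (no member was called lower), the 3 nearest the threshold on each side and the variants, with the 2 smallest p of each translation list. Other genes named were chosen after their values were seen. Members and lists were chosen with earlier results of these data known. Some genes enter the counts over all genes but are not reported here by name or drawn one by one.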

Additional observations from a re-analysis of the deposited data

Results flagged for a closer look

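A library was listed when its gap to the nearest library of its group of 4, divided by the range of the group, exceeded Dixon's critical value at the 95% level. This held for 20 of 258 groups of values (7.75%), and chance gives about 1 in 20. Each value is in CPM, beside the range of the other libraries of its group.

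MC903 replicate 4 was the lowest of its group for Rpl7 (362 against 508 to 510.1), Rplp1 (391 against 767 to 782) and Rps18 (209 against 336 to 360.2). It was also lowest for Rpl27 (13.1 against 14.3 to 14.5), Rpl31 (6.73 against 9.41 to 9.94) and Rpl36 (3.16 against 11.7 to 13.4). Outside the ribosomal protein genes it was lowest for Mrpl20 (136 against 181 to 186) and Mtor (25.8 against 28.5 to 28.99). Its share of counts in ribosomal protein genes was 1.47%, against 2.28% to 2.4% in the other MC903 libraries.

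Vehicle replicate 3 was the lowest of its group for Rpl37a (81.1 against 94.9 to 97.2) and Rpl36al (39.9 against 51.8 to 53.3). It was lowest for Mcpt8 (0.343 against 0.825 to 0.874) and highest for Eif4e (76.5 against 59.9 to 60.3). Vehicle replicate 4 was the highest for Rps19 (354 against 259 to 271), Mxd1 (73.9 against 65.8 to 66.8) and the summed fibroblast markers (15720.3 against 11412 to 11484). Vehicle replicate 2 was the lowest for Rps23 (2.54 against 3.03 to 3.12) and the highest for Krt1, a keratin of differentiated keratinocytes (277 against 173 to 180.4). MC903 replicate 2 was the highest for Fau (26.7 against 10.8 to 13.5) and Mcpt8 (101 against 83.7 to 86.6).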

How the results depend on the processing

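The number of ribosomal protein genes that rose was 59 and the number that fell 0. With library sizes alone these were 32 and 1 (Rpl3l). Leaving out 1 library at a time gave 39 (without vehicle replicate 3) to 68 (without MC903 replicate 4) that rose, 0 to 1 that fell (Rpl3l, without vehicle replicate 4) and a median log2 fold change of 0.55 to 0.80. With upper quartile factors 49 rose (all genes 18.5%), with DESeq2 64 of 82 (19.1%) and with limma-voom 54 (20.8%). Restricted to genes with at least 50% unique windows, a smaller set of 42, 31 rose, and with at least 90% 3 of 7 rose. Of the 59, 36 passed in all 8 omissions of a library and 25 in every alternative run, Rps10, Rpl27, Rps16, Rpl41 and Rps15a among them. Among ribosomal protein genes the estimate of Rpl36 alone changed sign across alternatives (-0.17 to 0.49). In the shorter promoter window, from 100 bases before to 50 after the start, CACGTG stood in 2.67% against 4.35% of all promoters and GGGCGG in 44% against 28.8%.

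The labels name no pairing of samples by replicate number. Deviations of same-numbered libraries had correlations of 0.06, -0.14, -0.12 and -0.20 across genes. Those of differently numbered libraries ran from -0.14 to 0.29, so a weak pairing could not be told from these values. Among genes near the threshold, calls were also lost in alternatives other than the omission of 1 library, for Rps23 in 7 of 13, Rpl3 in 6, Rps27l in 6 and Rplp1 in 5. With the replicate block 47 genes rose (all genes 18.5%) and 0 fell. Depth limits the calls of genes with few counts, such as Rps13, Rps6, Rps27 and Rpl23a.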

Other observations

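Genes of the marker lists with the smallest p are given as values. Among leukocyte markers these were Mcpt8 and Cxcr2, a neutrophil chemokine receptor, at 6.95 ± 0.22 and 2.82 ± 0.15 on the log2 scale (edgeR adjusted p = 1.99e-08 and 3.75e-07). Of 16 keratinocyte markers 4 rose and 3 fell (median log2 fold change -0.11). Those with the smallest p, Krt1 and Dsc1, genes of differentiated layers, rose by 3.19 ± 0.23 and 1.71 ± 0.14 (adjusted p = 2.75e-06 and 4.60e-06). Among proliferation markers the mitotic kinases Plk1 and Cdk1 rose by 2.29 ± 0.18 and 1.92 ± 0.16 (adjusted p = 4.60e-06 and 5.66e-06). Of 12 fibroblast markers 1 rose and 2 fell. Those that fell were Pdgfrb and Dcn, at -0.55 ± 0.12 and -0.74 ± 0.19 (adjusted p = 0.00444 and 0.00838). Among muscle markers Pvalb and Myh4 fell, at -1.39 ± 0.42 and -1.66 ± 0.51 (adjusted p = 0.0214 and 0.0235), calls lost in 4 and 5 of the 8 omissions of 1 library. Of 9 RNA quality and ribosomal RNA genes tested 1 rose, Rn7sk (2.15 ± 0.58, adjusted p = 0.0120), and mt-Co1 did not pass (-0.53 ± 0.27, adjusted p = 0.137).

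With group means removed, the genes outside the naming rule whose levels over the 8 libraries were most like the mean of the ribosomal protein genes were Lyrm2, Rpl36-ps12, Gm11914, Gm11517 and Gm9013. Their Pearson likeness was 0.991, 0.981, 0.981, 0.975 and 0.974, a description over libraries in which MC903 replicates 2 and 4 deviate most. Rpl36-ps12 is a ribosomal protein pseudogene by name.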
